A study of Homo sapiens with 6 samples.

Results

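Transcripts annotated to nonsense-mediated decay, read beside the coding transcripts of the same genes, were followed through 6 libraries of HK2 cells, an immortalised human line of proximal tubule epithelium. Members were selected on measured values, their mean level and that of their coding partners: a decay transcript entered the set if it averaged 1 CPM (the usual depth-scaled count, here scaled to library totals) or more over the 6 libraries and if the protein_coding transcripts of its gene together averaged 1 CPM or more. The set held 3320 of the 13703 decay transcripts in the annotated table of 149676 transcripts, and they lay in 2168 genes. Another 147 decay transcripts reached 1 CPM in genes whose coding transcripts did not. Both groups of libraries came from cells given a FLAG-VMP1 plasmid 48 hours before harvest. VMP1 sits in the membrane of the endoplasmic reticulum and acts in autophagosome formation. The lysate libraries (n = 3) held RNA of the whole lysate, and the FLAG immunoprecipitates (n = 3) held RNA recovered on beads that carried antibody to the tag. Polyadenylated RNA was selected in all of them. The titles name VMP1 in every immunoprecipitate, whereas the treatment labels number the plasmid VMP1 to VMP6 from sample to sample. No immunoprecipitate from cells without the tagged construct was analysed here, so binding to VMP1 and recovery on the beads cannot be told apart. Nothing in the labels ties the replicates to separate cultures, and a p-value here reflects the spread among these 6 libraries alone, which may be technical.

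Nonsense-mediated decay is a surveillance pathway that removes messenger RNA whose reading frame ends well upstream of its last splice junction. The exon junction complex left behind by splicing marks such a stop as premature, and the UPF and SMG proteins carry the message to the decay enzymes. Splicing factors of the SR and hnRNP families use it to limit their own levels, by splicing in an exon that carries a premature stop. A decay transcript and the coding transcripts of its gene share most of their exons, so the split of shared reads between them is an estimate, and every ratio given here rests on that estimate.

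The annotated starts of a decay transcript and its leading coding partner often lay close together. Of the 3320 members, 1921 (57.9%) began within 50 bases of the leading coding transcript, the one with the highest mean count, and 1353 (40.8%) ended within 50 bases of its end. RefSeq start windows, 250 bases before to 50 bases after a gene's start on GRCh38.p14, were found by symbol for 2728 members, and 1538 of these (56.4%) had both annotated starts inside the window. The start regions of 4 genes whose ratios are described below are shown to let the pairs of starts be compared. They run 5′ to 3′ on the gene's strand, and the capitals mark the annotated first base of the decay transcript and of the leading coding transcript, 1 capital where these coincide. HSP90B1 (chr12:103930360-103930415, plus strand) and EIF4A2 (chr3:186783527-186783582, plus strand) have 1 shared first base. In TRA2B (chr3:185938009-185938079, minus strand) the decay transcript starts 15 bases upstream of the coding one, and in RACK1 (chr5:181243884-181243956, minus strand) it starts 17 bases downstream.
HSP90B1: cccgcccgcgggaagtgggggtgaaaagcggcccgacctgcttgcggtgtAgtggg
EIF4A2: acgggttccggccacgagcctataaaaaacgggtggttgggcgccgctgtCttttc
TRA2B: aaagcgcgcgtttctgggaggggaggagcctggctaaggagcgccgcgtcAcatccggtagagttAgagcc
RACK1: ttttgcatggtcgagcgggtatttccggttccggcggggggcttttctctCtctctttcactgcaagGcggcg

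Members were shorter than their coding partners but not poorer in exons. Their median length was 2769 bases against 3447 for the leading coding transcripts, and 2160 members were the shorter of the pair. The median was 12 exons on both sides; 1244 members had fewer exons than the partner, 886 had the same number and 1190 had more. The median member had a mean of 3.31 CPM, 635 members reached 10 CPM and 34 reached 100 CPM. In the median pair there were 11.3 decay counts for 100 coding counts, and 172 members exceeded the sum of their coding partners. Counts are not divided by length, so a level or ratio does not compare molecules between genes. The lysate mean alone reached 1 CPM for 2541 members and the immunoprecipitate mean for 2761; 559 members passed through the lysates only and 779 through the immunoprecipitates only. At the threshold, TTC26, P4HB and TFDP2 transcripts were just inside at 1.00 CPM, and ATG12, PIGT and ANKRD18A transcripts were just outside at 0.999 CPM.

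Library totals were 77753608 to 92948069 counts in the lysates and 54363555 to 59293096 in the immunoprecipitates. FLAG immunoprecipitate 2 stood apart. VMP1, the targeted gene, had 291, 282 and 290 CPM in lysates 1 to 3 and 2568, 267 and 2894 CPM in immunoprecipitates 1 to 3, so the library labelled immunoprecipitate 2 held less VMP1 than any lysate. Tubular epithelium markers, 16 of 17 found and 12 at 1 CPM or more, summed to 1613 to 1657 CPM in lysates and to 855, 2010 and 854 CPM in immunoprecipitates. AQP1, CUBN and HNF4A, which define the proximal tubule, were under 1 CPM. Fibroblast markers (9 of 11 at 1 CPM or more) summed to 169 to 213 CPM against 26.9, 362 and 28.0 CPM, neutrophil markers (9 of 11) to 327 to 592 against 120, 412 and 14.1 CPM, lymphocyte and macrophage markers (4 of 5) to 224 to 268 against 44.3, 216 and 21.4 CPM, and endothelial markers (1 of 4) to 16.8 to 30.6 against 7.52, 23.8 and 3.14 CPM. FAP, POSTN, ELANE, MPO, CDH5, KDR and VWF were under 1 CPM. Every list was higher in immunoprecipitate 2 than in the other immunoprecipitates, and the part of these differences in the results below was not tested. In bulk RNA, fewer cells of a type, less RNA per cell and unequal recovery of RNA on the beads cannot be told apart. Marker RNA in these libraries of a cell line does not by itself show that cells of that type were present.

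The decay to coding ratio of the members moved, at the median, in no single direction across the immunoprecipitates. Its median log2 value, with 0.5 CPM added to each side, was -3.75, -3.74 and -3.71 in lysates 1 to 3 and -3.28, -3.80 and -4.01 in immunoprecipitates 1 to 3. Immunoprecipitate 1 lay above all lysates, and immunoprecipitates 2 and 3 lay below all of them. In immunoprecipitate 3, 57.1% of members were detected, and a member at 0 enters there with a low ratio. The difference between these medians was not tested. Measured from the lysate mean of each member, the median shift was 0.36, -0.06 and -0.15 on the log2 scale, while the interquartile range ran from -2.06 to 2.11 in immunoprecipitate 3 and from -1.19 to 0.95 in immunoprecipitate 2. The median log2 change fitted with edgeR was 0.01, with 1667 members above 0, against a median of 0.92 over all 14657 non-coding transcripts fitted in the same way.

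No member passed the test of its own ratio. edgeR's quasi-likelihood test called 0 of 3320 members higher and 0 lower at an adjusted p of 0.05, beside 0% of all features tested in either direction. The lowest adjusted p was 0.479, and 192 members had an unadjusted p under 0.05, 86 of them higher and 106 lower, where 7.94% of all features did. All 3 immunoprecipitates lay above all 3 lysates for 248 members (7.47%) and below them for 229 (6.90%), against 18% and 4.33% of all features tested. The members' share was below the background on the upper side and above it on the lower side. A member at 0 in an immunoprecipitate with coding counts cannot lie above the lysates. In immunoprecipitate 3, 57.1% of members and 74.0% of all features were detected, so these shares reflect detection as well as ratio. The background itself includes 4478 decay transcripts. Taken alone, immunoprecipitate 1 was above all lysates for 1277 members and below for 745 (background 56.7% and 16.4%), immunoprecipitate 2 for 939 and 792 (36.2% and 21.3%), and immunoprecipitate 3 for 1089 and 1144 (50% and 26.5%).

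**Figure D1:**
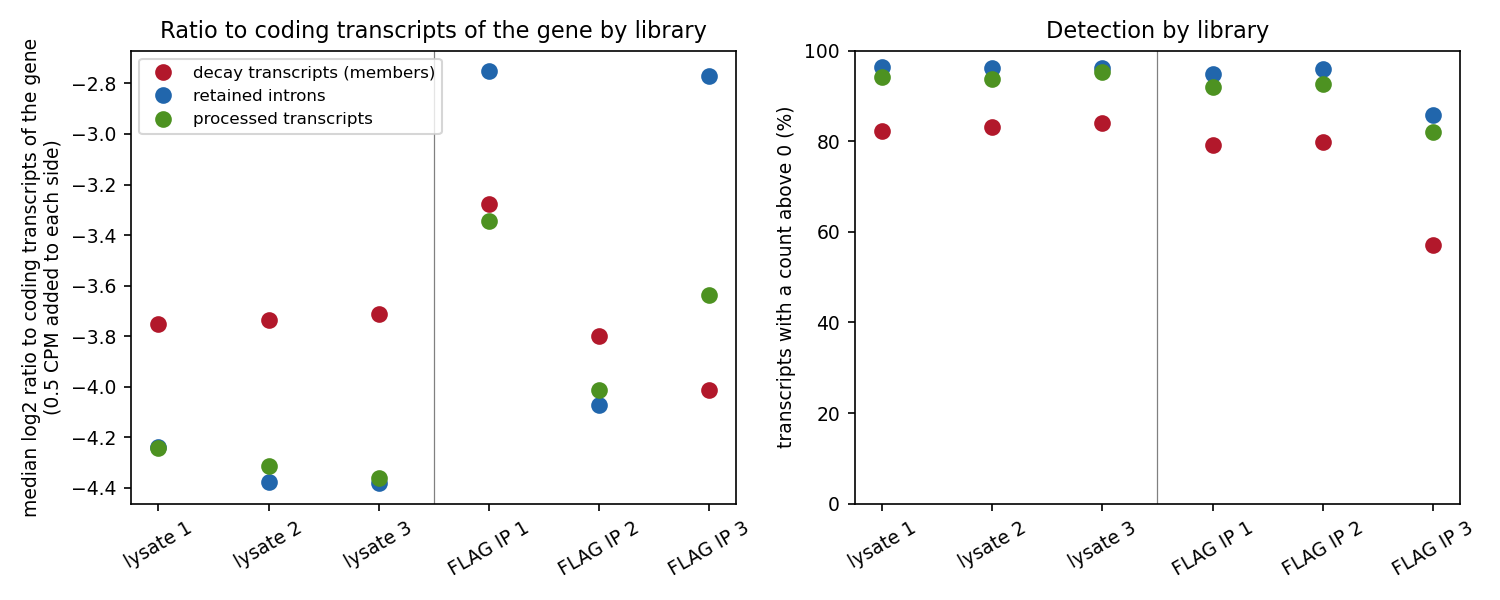
Left, the median log2 ratio to the gene's coding transcripts in each library, for the 3320 decay transcripts, 5654 retained introns and 1383 processed transcripts; right, the percent of each type with a count above 0. Retained introns and processed transcripts are higher in immunoprecipitates 1 and 3 than in the lysates, whereas the decay transcripts go from -3.28 in immunoprecipitate 1 to -4.01 in immunoprecipitate 3, where 57.1% of them are detected.

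Other non-coding classes had higher ratios in immunoprecipitates 1 and 3. Retained introns, transcripts that keep an intron and carry no annotated reading frame, had median log2 ratios of -4.24, -4.38 and -4.38 in lysates and -2.75, -4.07 and -2.77 in immunoprecipitates. All 3 immunoprecipitates were above all lysates for 1406 of 5654 (24.9%) and below for 151 (2.67%), and the fitted median change was 1.36 with edgeR. Processed transcripts had a fitted median of 0.84, with 263 of 1383 above (19.0%) and 80 below (5.78%). Counts inside the same genes were similar. In 1050 genes that hold both types, 131 of 1902 decay transcripts (6.89%) had every immunoprecipitate above every lysate and 127 (6.68%) below, whereas 524 of 2440 retained introns (21.5%) were above and 73 (2.99%) below. The fitted median there was -0.08 for decay transcripts and 1.33 for retained introns. Detection in immunoprecipitate 3 differed too, at 52.7% of these decay transcripts and 84.1% of these retained introns, which lowers the share that can lie above. These are counts over transcripts that share libraries and denominators, and the difference between the types was tested only as a share of each library's counts, given next.

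The share of a library's transcript counts assigned to all decay transcripts was 3.07%, 3.52% and 3.57% in the lysates and 4.11%, 3.21% and 4.09% in the immunoprecipitates. Immunoprecipitates 1 and 3 were above every lysate and immunoprecipitate 2 lay among them. The means were 3.38% ± 0.28 (SD, n = 3) and 3.8% ± 0.51 (SD, n = 3), a difference of 0.42 percentage points that an exact two-sided permutation test did not separate from the spread (p = 0.3, with 0.1 the smallest p that 3 against 3 allows). Retained introns took 5.39%, 5.64% and 5.56% of lysate counts and 8.75%, 6.04% and 8.77% of immunoprecipitate counts, with no overlap (exact p = 0.1). The log2 ratio of the retained-intron share to the decay share was 0.81, 0.68 and 0.64 in lysates and 1.09, 0.91 and 1.10 in immunoprecipitates, again with no overlap (difference 0.32, exact p = 0.1, the smallest possible). Within the members' genes, decay transcripts made up 13.0%, 15.4% and 15.3% of decay and coding counts in lysates and 18.1%, 13.2% and 18.2% in immunoprecipitates.

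Decay transcripts were the least steady of the 3 classes. A count above 0 was found for 2731, 2764 and 2787 members in the lysates and for 2630, 2650 and 1895 in the immunoprecipitates, so 57.1% of them were detected in immunoprecipitate 3 although its total was the highest of its group. Only 1332 members (40.1%) were detected in all 6 libraries, against 79.8% of retained introns, and 185 were seen in 1 library alone. Among the 3 lysates the median SD of the log2 ratio was 0.85 for members, 0.48 for retained introns and 0.38 for processed transcripts. A transcript at 0 in one lysate and at 5 CPM or more in another was met for 417 members (12.6%), 153 retained introns (2.71%) and 40 processed transcripts (2.89%).

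The spread was larger in genes with more annotated transcripts. In genes with 10 or fewer transcripts (1006 members) the median lysate SD was 0.59 and 6.16% of members went from 0 to 5 CPM or more between lysates. With 11 to 20 transcripts (1236 members) the values were 0.85 and 12.1%, and with over 20 (1078 members) they were 1.18 and 19.0%. The 858 members (25.8%) that were detected in every lysate with an SD under 0.5 had median shifts of 0.32, 0.02 and 0.35 in immunoprecipitates 1 to 3. Of these, 129 (15.0%) had every immunoprecipitate above every lysate and 90 (10.5%) below, whereas 1040 of 2811 equally steady retained introns (37.0%) were above and 78 (2.77%) below, with median shifts of 1.62, 0.27 and 1.73. A low lysate spread makes groups that do not overlap more frequent in either direction, so these shares are not set against the background above.

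**Figure D2:**
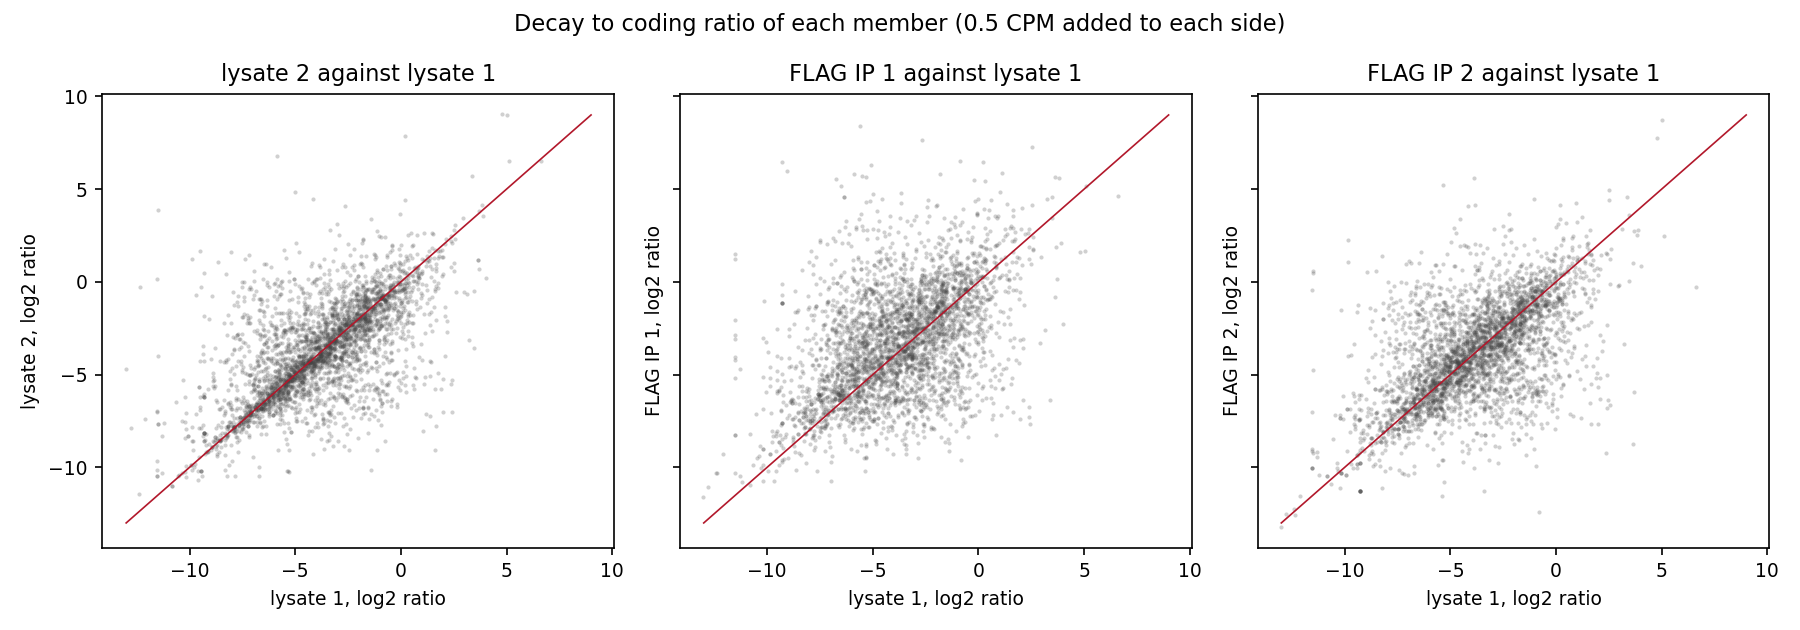
Each point is 1 of the 3320 members, with its log2 decay to coding ratio (0.5 CPM added to each side) in lysate 1 on the x axis and in another library on the y axis; the red line marks equal values. Members scatter around the line between 2 lysates as well as between lysate and immunoprecipitate, and the median SD among lysates is 0.85.

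HSP90B1, the endoplasmic reticulum chaperone also called GRP94, shows how one gene's counts passed between its transcripts. The gene as a whole had 1773, 1747 and 1712 CPM in lysates and 4404, 1263 and 5065 CPM in immunoprecipitates. ENST00000680370, at chr12:103930410-103947922 with 19 exons and the member with the highest mean, had 0, 0 and 1347 CPM in lysates and 1783, 445 and 4191 CPM in immunoprecipitates. ENST00000681174, with the same ends and 18 exons, had 0, 1527 and 0.0538 CPM and then 0, 416 and 0 CPM. The coding transcripts summed to 1465, 102 and 251 CPM in lysates. Most of the gene's counts were thus read as coding in lysate 1 and as decay in lysate 2, at a gene level that differed little. All decay transcripts of the gene together had 120, 1555 and 1374 CPM in lysates and 3521, 880 and 4330 CPM in immunoprecipitates.

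P4HB and TGFBI split in the same manner. P4HB encodes protein disulfide isomerase, and its transcript ENST00000679889 had 0, 788 and 859 CPM in lysates and 0, 376 and 0 CPM in immunoprecipitates while the coding sum was 1491 CPM in lysate 1 and 714 and 674 CPM in lysates 2 and 3. TGFBI encodes an extracellular matrix protein induced by TGF-beta. Its member ENST00000507018 had 1.80, 2.97 and 1082 CPM in lysates and 7.34, 1612 and 3.56 CPM in immunoprecipitates. In both genes the groups overlap, and the position of the high libraries follows neither group. HNRNPA2B1, a splicing factor, held the most members, 17, and their sum per 100 coding counts was 15.3, 79.8 and 42.1 in lysates and 68.6, 28.9 and 4.69 in immunoprecipitates. PIGT and STAMBP held 11 members each, and P4HB held 10. STAMBP, a deubiquitinase, had 79.5, 77.9 and 105 decay counts per 100 coding in lysates and 88.5, 167 and 101 in immunoprecipitates, which overlap.

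**Figure D3:**
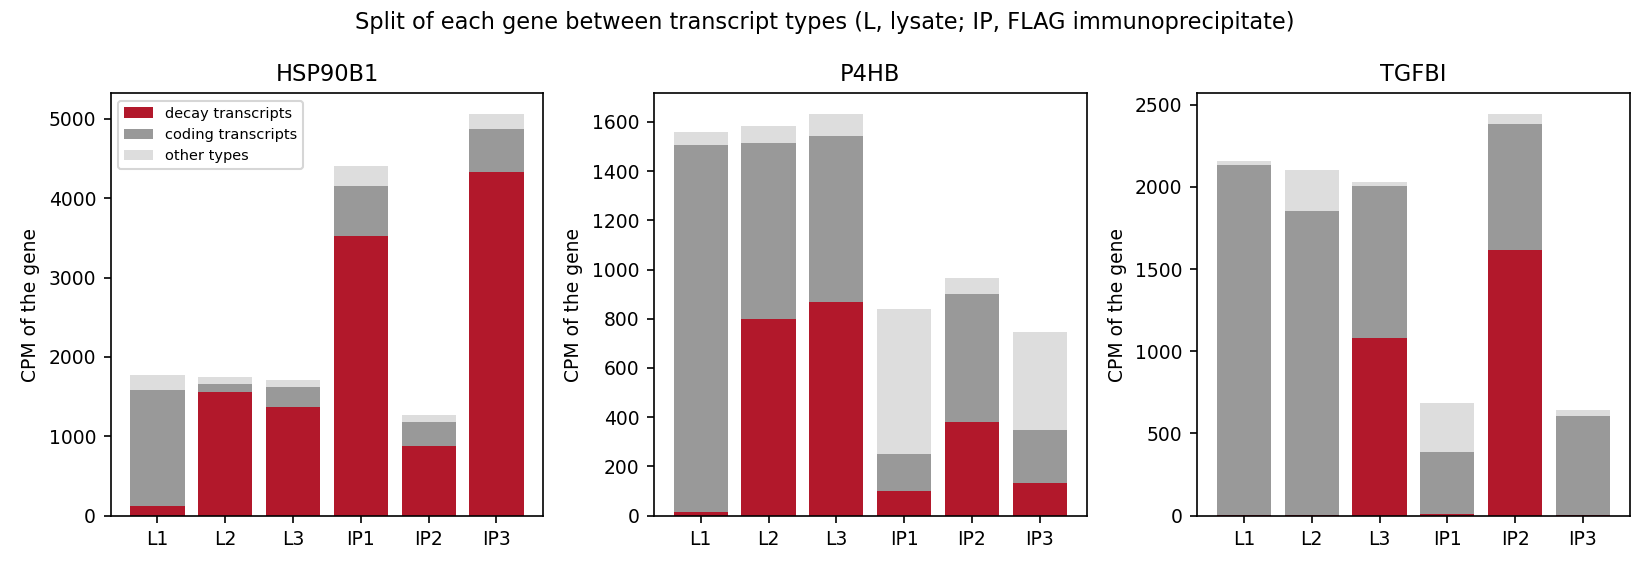
Stacked bars give the CPM of HSP90B1, P4HB and TGFBI in each library, divided into decay transcripts, coding transcripts and other types. The lysate bars of a gene have nearly the same height, but the decay portion of HSP90B1 is 120 CPM in lysate 1 and 1555 CPM in lysate 2.

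RACK1, a scaffold protein of the small ribosomal subunit, had more decay than coding counts in 5 of the 6 libraries. ENST00000504325 (chr5:181236926-181243889, 8 exons) had 422, 362 and 438 CPM in lysates and 83.3, 464 and 83.5 CPM in immunoprecipitates. The ratio was 15.1, 11.9 and 12.2 against 4.28, 6.90 and 0.671, lower in every immunoprecipitate (log2 change -2.19 ± 1.11 SE, edgeR adjusted p = 0.551). RPLP0, a protein of the ribosomal stalk, had ENST00000551258 at 422, 446 and 628 CPM in lysates and at 5.94, 265 and 1.10 CPM in immunoprecipitates. Its ratio was 0.399, 0.387 and 0.758 against 0.0181, 0.321 and 0.00227, again with no overlap, while a second RPLP0 member, ENST00000547475, had under 1 CPM in every lysate and 159, 291 and 0 CPM in immunoprecipitates.

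EIF4A2, a helicase of translation initiation, had ENST00000425053 at 287, 294 and 315 CPM in lysates and 200, 213 and 209 CPM in immunoprecipitates, every immunoprecipitate below every lysate. Without immunoprecipitate 2, edgeR's test of the level called it lower (log2 change -1.07, adjusted p = 0.0176). That fit scaled the libraries by TMM, whereas CPM here use library totals, so this log2 change is larger than the printed CPM show. The coding transcripts had 111, 160 and 114 CPM against 33.5, 105 and 48.8 CPM, so the ratio was 2.59, 1.84 and 2.77 in lysates and 5.96, 2.03 and 4.28 in immunoprecipitates. Immunoprecipitate 2 lay among the lysates and the other immunoprecipitates above them (log2 change 0.66 ± 0.78 SE). VIM, the intermediate filament vimentin, had ENST00000487938 at ratios of 0.227, 0.220 and 0.571 against 0.303, 0.187 and 0.369, which overlap. LDHA, lactate dehydrogenase A, had ENST00000545215 at 633, 578 and 683 CPM in lysates and 0, 0 and 344 CPM in immunoprecipitates, where its ratio of 1.34 in immunoprecipitate 3 was above every lysate.

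**Figure D4:**
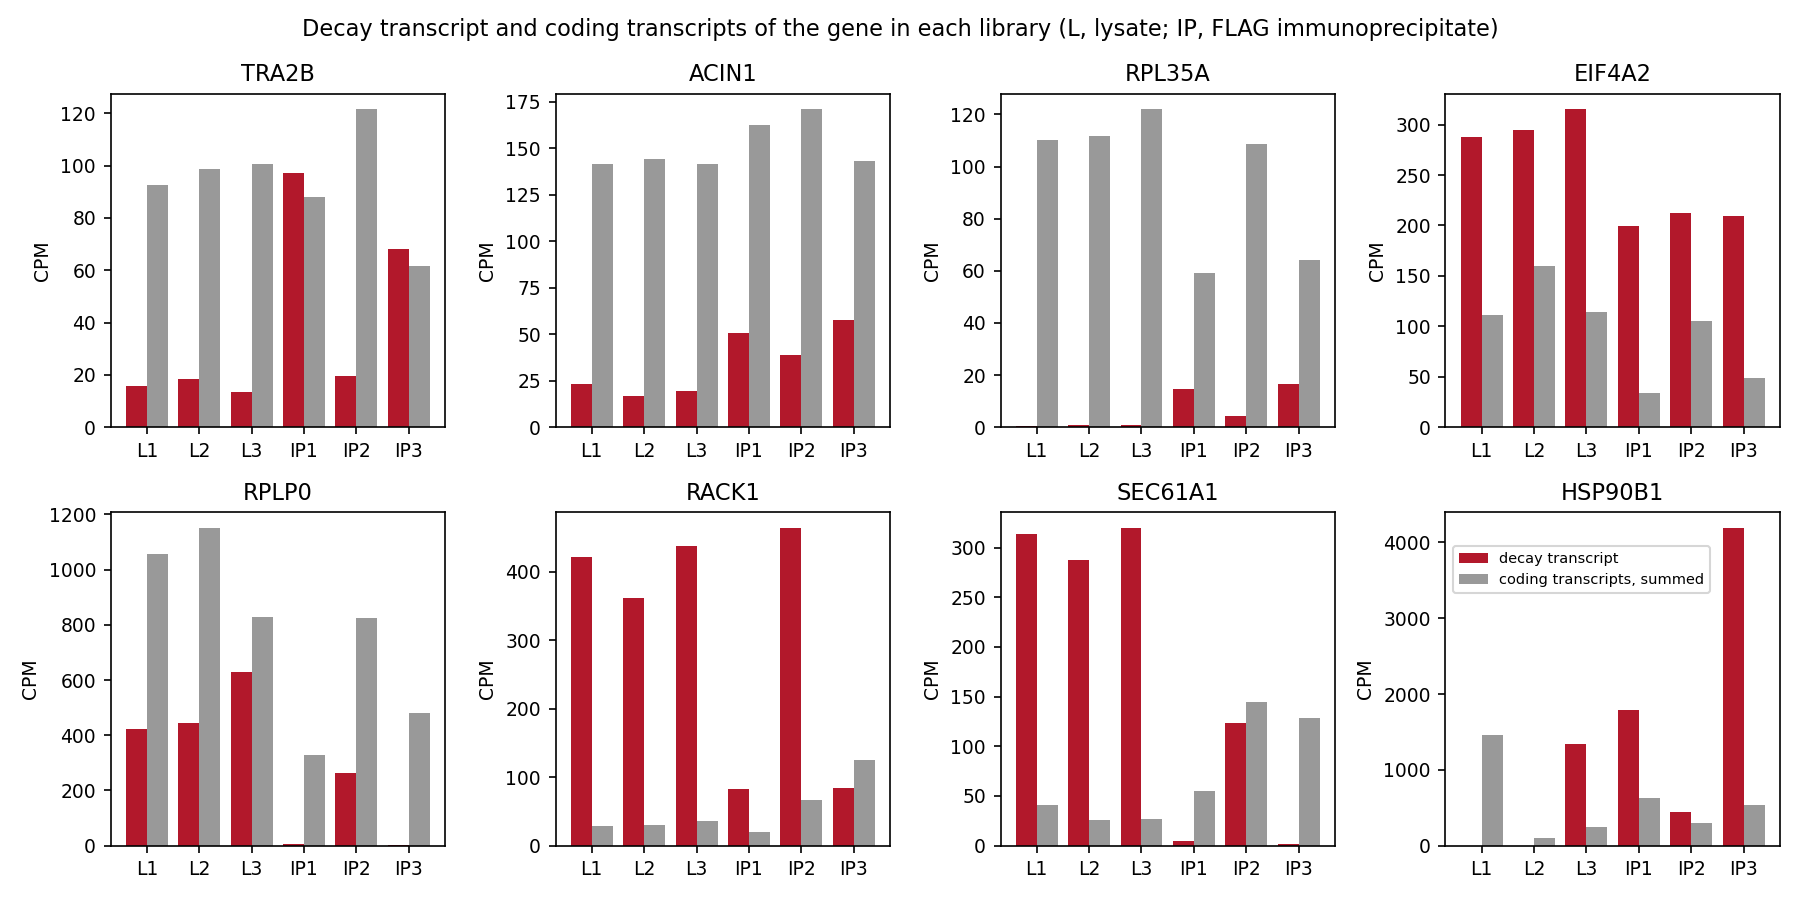
Bars give the CPM of 1 decay transcript (red) and of the summed coding transcripts of its gene (grey) in each of the 6 libraries, for 8 genes. The RACK1 and SEC61A1 decay transcripts exceed the coding sum in all lysates and not in immunoprecipitate 3, and the ACIN1 and RPL35A decay transcripts are highest in the immunoprecipitates.

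Among members detected in all 6 libraries, those with the lowest unadjusted p for a higher ratio had low lysate values. The lysate means of RPL35A, TPM3, WDR62 and NNT members were 0.68, 0.71, 0.75 and 0.37 CPM. They reached the 1 CPM threshold through the immunoprecipitates alone, so low lysate values and a rise are partly built in by the selection. None of the 8 members with the lowest p was called, and their adjusted p-values in edgeR's test were all 0.551. RPL35A, a protein of the large ribosomal subunit, led with ENST00000439255 at 0.502, 0.690 and 0.839 CPM in lysates and 14.7, 4.27 and 16.7 CPM in immunoprecipitates. Its ratio was 0.00456, 0.00617 and 0.00688 against 0.248, 0.0392 and 0.260 (log2 change 4.61 ± 1.10 SE, unadjusted p = 0.00543). TPM3, a tropomyosin, kept its coding level (459, 443 and 438 against 423, 527 and 416 CPM) while ENST00000651731 had 0.463, 0.655 and 1.02 CPM in lysates and 6.28, 3.62 and 6.02 CPM in immunoprecipitates. In both genes every immunoprecipitate was above every lysate.

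In other genes of this kind the coding sum was also lower in some or all immunoprecipitates. EIF3I, a subunit of initiation factor eIF3, had ENST00000679270 at 1.5, 1.07 and 1.28 CPM in lysates and 6.37, 3.00 and 4.99 CPM in immunoprecipitates, with coding sums of 112, 163 and 124 against 13.1, 66.8 and 22.7 CPM. WDR62, a spindle pole protein, had ENST00000587391 at 0.540, 1.47 and 0.237 against 7.95, 3.55 and 9.80 CPM. Its coding sum was 28.9, 32.3 and 32.5 against 8.51, 29.6 and 7.32 CPM, with immunoprecipitate 2 among the lysates. ASAH1, the lysosomal acid ceramidase, had ENST00000637244 at 0.952, 4.93 and 2.47 against 33.0, 12 and 8.79 CPM, with coding sums of 102, 105 and 53.3 against 5.18, 22.4 and 14.7 CPM. TRIO, a guanine nucleotide exchange factor, had ENST00000698542 at 0.347, 0.437 and 2.59 against 127, 54.9 and 6.39 CPM. Its coding sum was 349, 325 and 265 against 179, 238 and 256 CPM, a far smaller difference than that of the decay transcript. NNT, a mitochondrial transhydrogenase, had a log2 change of 6.47 ± 1.99 (SE).

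Among members with the lowest unadjusted p for a lower ratio, lysate levels ranged from 0.816 CPM for ZNF101 to 320 CPM for SEC61A1. SEC61A1 encodes the pore of the endoplasmic reticulum translocon. ENST00000699272 (chr3:128052384-128071667, 12 exons) had 314, 287 and 320 CPM in lysates and 5.06, 123 and 1.79 CPM in immunoprecipitates, while the coding sum was 40.8, 26.1 and 26.6 against 54.5, 144 and 129 CPM. The ratio was 7.70, 11 and 12 in lysates and 0.0928, 0.854 and 0.0139 in immunoprecipitates (log2 change -6.65 ± 1.76 SE, edgeR unadjusted p = 0.00876, adjusted p = 0.551). All immunoprecipitates, the second included, lay below all lysates.

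BCHE, butyrylcholinesterase, had ENST00000497011 at 48.7, 46.8 and 45.1 CPM in lysates and 11.9, 0.239 and 1.18 CPM in immunoprecipitates. CALM2, one of the calmodulin genes, had ENST00000652974 at 79.5, 105 and 171 against 29.6, 5.48 and 5.18 CPM. In both genes immunoprecipitate 2 lay with the other immunoprecipitates, below the lysates. DCTD, ZNF273, DCUN1D4 and ZNF101 also belonged here, with log2 changes between -2.84 and -4.81. For ZNF273 and ZNF101, zinc finger genes, the coding sum differed more than the decay transcript: ZNF101 coding transcripts had 6.24, 6.03 and 5.94 CPM in lysates and 37.9, 16.9 and 41.9 CPM in immunoprecipitates.

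The SR proteins and TRA2 factors bind exonic enhancers, and 14 members lay in 11 of the 13 genes of that list. edgeR called 0, 13 were detected in all 6 libraries and the median log2 change was 0.25. TRA2B ENST00000456380 had 15.8, 18.5 and 13.3 CPM in lysates and 97.1, 19.7 and 68.1 CPM in immunoprecipitates, at ratios of 0.170, 0.187 and 0.132 against 1.10, 0.162 and 1.11. Immunoprecipitates 1 and 3 were above all lysates and immunoprecipitate 2 was among them. SRSF7 ENST00000443213 had ratios of 0.237, 1.23 and 1.22 against 3.74, 2.74 and 1.14, and SRSF6 ENST00000483871 had 0.313, 0.387 and 0.367 against 0.130, 1.78 and 0.0559, so the groups overlap in both. Decay transcripts made up 12.5%, 15.0% and 16.2% of the decay and coding counts of these 11 genes in lysates and 22.7%, 21.4% and 14.1% in immunoprecipitates.

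Of hnRNP and other splicing factors there were 74 members in 35 genes, with a median log2 change of 0.30, 7 with all immunoprecipitates above all lysates and 3 below. Over all features tested the median was 0.92, with 18% above and 4.33% below. SF3B1, a subunit of the U2 particle, had ENST00000652026 at ratios of 0.350, 0.0855 and 0.109 in lysates and 0.965, 0.686 and 0.349 in immunoprecipitates, which overlap by the narrow gap between 0.350 and 0.349. SON ENST00000455528 (0.565, 0.524 and 1.16 against 0.601, 0.768 and 0.395) and QKI ENST00000361758 (0.281, 0.531 and 0.489 against 0.287, 0.411 and 0.415) kept to one range in both groups.

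Members lay in 1 of 16 NMD core genes, 3 of 13 exon junction genes and 5 of 25 RNA decay enzymes. Beside these, 2168 genes held members in the whole set, and 20593 genes were tested for level. DHX34, a helicase that activates UPF1, was the single NMD core gene with one, ENST00000460681, at ratios of 0.0228, 0.0244 and 0.0330 in lysates and 0.0541, 0.0147 and 0.0538 in immunoprecipitates. Exon junction and cap-binding genes held 4 members with a median log2 change of 0.76. ACIN1, a peripheral exon junction factor, had ENST00000473758 at 23.3, 16.8 and 19.7 CPM in lysates and 50.7, 38.6 and 57.8 CPM in immunoprecipitates over a coding sum of 142 to 171 CPM, so the ratio of 0.164, 0.116 and 0.139 stood against 0.313, 0.226 and 0.405. Every immunoprecipitate was above every lysate, but the test did not call it (log2 change 1.14 ± 0.71 SE, edgeR adjusted p = 0.567). NCBP2 and MAGOHB members overlapped between the groups. The RNA decay enzymes held 11 members in 5 genes, 7 of them in EXOSC2, a subunit of the exosome, with a median log2 change of -0.23 and 1 member above all lysates and 0 below (18% and 4.33% of all features). EXOSC2 ENST00000691284 had ratios of 0.218, 0.233 and 0.345 against 3.48, 0.269 and 1.57, EXOSC2 ENST00000688967 had 0.951, 0.384 and 1.49 against 1.49, 1.03 and 0.0431, and CNOT1 ENST00000567188 had 0.0160, 0.0522 and 0.00942 against 0.0824, 0.0936 and 0.0297.

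At the level of whole genes, edgeR called 0 of 16 NMD core genes, 0 of 13 exon junction genes and 0 of 25 RNA decay enzymes in either direction. Of all 20593 genes, 0.16% were called higher and 0.5% lower. In these lists 2, 4 and 4 genes had an unadjusted p under 0.05. The share of all genes at that p is not given here, so these counts show neither an excess nor a lack. DESeq2 called 4 genes of these lists higher and 0 lower (background 6.74% and 4.22%). UPF2, a core factor that bridges UPF1 and UPF3, had 55.6, 51.2 and 49.1 CPM in lysates and 185, 76.9 and 203 CPM in immunoprecipitates (log2 change 1.42 ± 0.34 SE, edgeR unadjusted p = 0.00524, adjusted p = 0.110). UPF3A had 29.5, 31.0 and 31.0 against 94.8, 42.8 and 96.8 CPM, EXOSC2 had 43.9, 42.7 and 44.8 against 122, 70.4 and 133 CPM, and NCBP3 had 72.7, 74.6 and 72.4 against 287, 83.7 and 271 CPM. EIF4A3, the helicase at the centre of the exon junction complex, had 74.9, 73.2 and 77.9 against 37.0, 60.0 and 43.9 CPM, and CNOT1, the scaffold of the deadenylase complex, had 576, 562 and 562 against 314, 476 and 290 CPM. All immunoprecipitates were on one side of all lysates in each of these, with immunoprecipitate 2 nearest to the lysates. Without immunoprecipitate 2, edgeR called 4 higher and 7 lower among NMD core genes, 4 and 5 among exon junction genes and 9 and 11 among decay enzymes, where 23.9% and 27.2% of all genes were called.

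Ribosomal protein genes held 34 members in 23 genes, with a median log2 change of 0.02, 1 member above all lysates and 3 below (18% and 4.33% of all features). RPL13A ENST00000624069 had ratios of 0.266, 0.131 and 0.258 against 0.219, 0.188 and 0.240, inside one range. Translation factors held 32 members in 15 genes, with a median of 0.63 (0.92 over all features), 3 above and 2 below (18% and 4.33% of all features). EIF4G1 ENST00000676453 had 2.29, 3.47 and 5.07 CPM in lysates and 147, 139 and 0 CPM in immunoprecipitates, and EIF4H ENST00000678438 had 25.4, 48.8 and 58.9 against 20.7, 21.3 and 0 CPM. Both were at 0 in immunoprecipitate 3, the library with the fewest members detected.

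Autophagy and lysosome genes, the field in which VMP1 works, held 35 members in 20 genes, with a median log2 change of 0.81 (0.92 over all features), 1 above all lysates and 3 below (18% and 4.33% of all features). Measured from the lysate mean, their median shift was 1.01, -0.25 and -0.08 in immunoprecipitates 1 to 3. Over all features tested it was 0.95, 0.15 and 0.80. TMEM41B, a scramblase related to VMP1, had ENST00000524543 at 0.0772, 0.0460 and 11.9 CPM in lysates and 21.8, 9.47 and 106 CPM in immunoprecipitates, and its coding sum was listed at 0 in immunoprecipitate 3. GABARAPL1, a ubiquitin-like protein of the autophagosome, had ENST00000540424 at ratios of 0.636, 2.76 and 0.695 against 0.764, 0.226 and 0.000866. CTSZ, a lysosomal protease, had ENST00000681664 at 0.0833, 0.0919 and 0.0915 against 0.433, 0.0627 and 0.185, with immunoprecipitate 2 below the lysates and the other 2 above. Secretory pathway and endoplasmic reticulum genes held 45 members in 15 genes, only 5 of them detected in all 6 libraries, with 0 above and 5 below (18% and 4.33% of all features). Their decay share was 14.4%, 40.3% and 40.5% in lysates and 60.9%, 23% and 57.1% in immunoprecipitates, and the HSP90B1 counts described above are part of it.

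Oxidative phosphorylation genes held 19 members in 11 genes, with a median of 0.63 (0.92 over all features), 3 above and 0 below (18% and 4.33% of all features). ATP5F1A, the alpha subunit of ATP synthase, had ENST00000590156 at 201, 204 and 17.9 CPM in lysates and 108, 0 and 89.7 CPM in immunoprecipitates, against coding sums of 38.3, 36.0 and 217 and then 14.8, 299 and 16.6 CPM. High coding and low decay values fell in the same libraries, lysate 3 and immunoprecipitate 2. Its other named member, ENST00000586592, was at 0 except for 38.5 CPM in immunoprecipitate 2. UQCRH, a hinge protein of complex III with 1 coding transcript, had ENST00000496387 at ratios of 0.231, 0.185 and 0.170 against 0.324, 0.186 and 0.378, with immunoprecipitates 1 and 3 above all lysates and immunoprecipitate 2 among them. Its coding sum was 49.3, 53.2 and 61.2 CPM in lysates and 20.1, 42.1 and 18.1 CPM in immunoprecipitates. edgeR called 0 members of any list, and no list had more than 4 with an unadjusted p under 0.05.

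**Figure D5:**
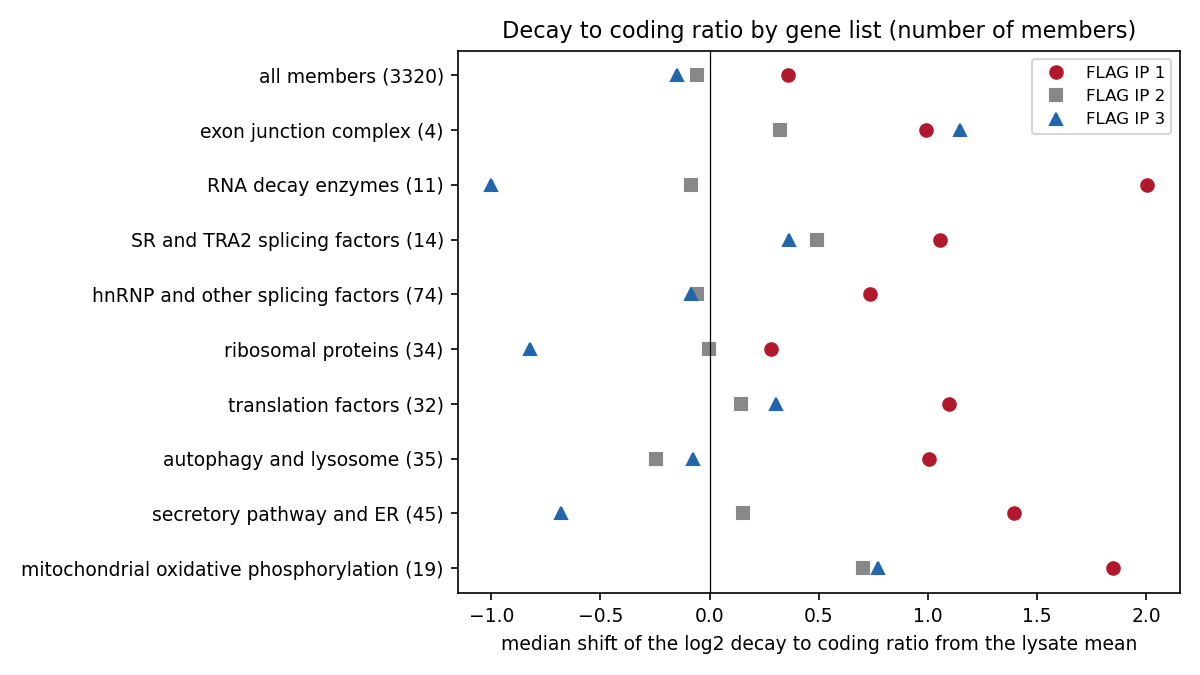
Points give, for each gene list with at least 4 members, the median shift of the log2 decay to coding ratio in each immunoprecipitate from the lysate mean, with the number of members in brackets. Immunoprecipitate 1 lies to the right of 0 in every list, while over all members the 3 values are 0.36, -0.06 and -0.15. Over all features tested they are 0.95, 0.15 and 0.80.

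The shares differed by a few percentage points with structure, a difference that was not tested. The 1399 members that start elsewhere than the leading coding transcript had every immunoprecipitate above every lysate in 9.29% and below in 6.79%, and the 1921 that share its start in 6.14% and 6.98%. Members with fewer exons than the partner were above in 9.65% and below in 6.35%, those with the same number in 5.87% and 6.88%, and those with more in 6.39% and 7.48%. By length, members under 1000 bases were above in 7.22% and below in 8.37%, those from there to under 3000 bases in 7.57% and 7.06%, and those from 3000 bases in 7.41% and 6.46%. Members of at least 10 CPM were above in 8.19% and below in 7.56%. Each of these shares above was under the 18% of all features tested, and each share below was over their 4.33%.

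With limma on the log2 ratio, 1 member was called higher at 0.5 CPM added to each side (0.0205% of all features) and 3 at 0.1 CPM (0.0409%), and none lower. On FPKM it called 1 member higher (0.0136%). ABCC6, a transporter, was called at 0.1 CPM. It had ENST00000622290 at 0, 0 and 0.0215 CPM in lysates and 3.84, 2.41 and 10.2 CPM in immunoprecipitates, over coding sums of 6.51, 6.55 and 6.85 against 0.172, 0.515 and 1.01 CPM (limma adjusted p = 0.0447). ACSL3, a fatty acid ligase also called there, had ENST00000680475 at 0, 0 and 0.0323 against 13.3, 24.8 and 0 CPM, with the coding sum also at 0 in immunoprecipitate 3. Both reached 1 CPM through the immunoprecipitates alone. Both were named after their values were seen, and edgeR gave each an adjusted p of 0.479.

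The level of each decay transcript was tested as well as its ratio. Of 2823 members that passed the expression filter, edgeR called 0 (0% of 62534 transcripts in each direction), with 277 at an unadjusted p under 0.05. The share of all transcripts at that p is not given here, so the 277 show neither an excess nor a lack. DESeq2 called 88 of 2634 members higher and 114 lower (3.34% and 4.33%), beside 1.4% and 2.53% of 89299 transcripts. Those 89299 were not held to the members' minimum of 1 CPM, so the shares compare sets of unlike expression. Without immunoprecipitate 2, edgeR called 82 of 3002 members higher and 135 lower (2.73% and 4.5%), beside 2.45% and 6.1% of 73009 transcripts. For the ratio without that library, limma called 197 members higher and 120 lower (5.93% and 3.61%), beside 13.7% and 1.73% of all features. There edgeR called 0, with 540 at an unadjusted p under 0.05 (the share of all features is not given) and a lowest adjusted p of 0.0604. The lower side thus held a larger part of the members than of all features in the limma fit of the ratio. In immunoprecipitate 3, 57.1% of members and 74.0% of all features were detected, and a transcript at 0 enters with a low ratio. These shares therefore reflect detection as well as ratio, and the part of each was not tested.

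TRA2B ENST00000456380 was among the members called both ways without immunoprecipitate 2 (edgeR level, adjusted p = 0.0399; limma ratio, adjusted p = 0.0251). RPLP0 ENST00000551258 and SEC61A1 ENST00000699272 were called lower in both, and RPL35A ENST00000439255 was called higher in both. Of these, every immunoprecipitate lay on one side of the lysates for all but TRA2B. The most abundant VIM member had overlapping ratios, as given above, and another, ENST00000469543, had 14.5, 7.30 and 5.06 CPM in lysates and 279, 21.0 and 161 CPM in immunoprecipitates.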

How the data were processed

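RNA of 3 lysates and 3 FLAG immunoprecipitates was grouped by sample title. The authors deposited whole-number counts per gene and per transcript, and FPKM values scaled by length and library, per the file headers. Per the submitters' processing notes, the tools were StringTie 2.1.6, HISAT2 2.2.1, cutadapt 1.9, edgeR and DESeq2 and the build was GRCh38.p14; their roles and order are unstated. Libraries marked strand by dUTP, per the labels' protocols; the strand setting of counting, not given in the sources used here, leaves overlapping and antisense genes uncertain. A split of shared reads between transcripts is the authors' estimate.

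CPM used transcript library totals. For the ratio, each non-coding transcript of at least 0.5 CPM and the coding sum of its gene (at least 1 CPM) were fitted together in edgeR (4.0.16, R 4.3.3) with 1 term per library, 1 for the class and 1 for class by group, and p-values were adjusted over all 14657 features by Benjamini-Hochberg at 0.05. SE is the log2 change over the square root of F. Levels were tested with edgeR after TMM scaling and its default filter. Alternatives were limma (3.58.1), DESeq2 (1.42.0), other scalings, filters and denominators, a replicate block and each library left out; code was tested on simulated data. The labels do not say whether replicate numbers pair the libraries, and the main fits used no pairing.

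The members and gene lists were chosen with earlier results of these data known. Named were the 8 members of highest mean, the 8 lowest p-values in each direction among members detected in all libraries, up to 3 per list by mean, the transcripts at the threshold, the genes with the most members and up to 3 genes per machinery list by p. Some genes that these rules or marker lists hold are not reported here.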

Additional observations from a re-analysis of the deposited data

How the results depend on the processing

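Every alternative of the edgeR ratio fit (lower and higher expression filters, decay transcripts alone, the leading coding transcript as denominator, decay transcripts summed per gene, each library left out) gave 0 members called in either direction. limma on the ratio called 1 member higher at 0.5 CPM added, 3 at 0.1 CPM, 1 on FPKM and 1 on gene sums, and without FLAG immunoprecipitate 2 it called 197 higher and 120 lower, a fit added after seeing the data along with the gene sums and the share without the 10 top genes. At transcript level DESeq2 called 88 higher and 114 lower; leaving out 1 library gave 0 to 82 higher and 0 to 135 lower in edgeR, the highest values without immunoprecipitate 2. In the decay machinery DESeq2 called 4 genes higher, and leaving out 1 library gave 0 to 17 higher and 0 to 23 lower, the highest again without immunoprecipitate 2. For these moves beyond fewer libraries the cause was not tested. The median log2 change over the members ranged from -0.38 without immunoprecipitate 1 to 0.19 without immunoprecipitate 3. The difference in the decay share ranged from 0.26 to 0.71 percentage points over libraries left out, and was 0.35 on FPKM, 0.69 in genes with both types and 0.51 without the 10 genes with the most abundant members. With the replicate number as a block, the ratio, transcript and machinery fits gave 0 calls and the median change was -0.10. Deviations of same-numbered libraries had correlations of 0.007, -0.026 and -0.008 across transcripts. Libraries of unlike number had correlations from -0.019 to 0.026. With every pair this near 0, the measure cannot decide whether the numbers pair the libraries. Of 49 named members, 37 kept the sign of their ratio change in all 15 settings and 12 turned in at least 1, and 13 were called in some setting. Transcripts at low counts carry little precision, and intervals here cover neither the split of shared reads nor amplification. A member that was not called may still differ.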

Other observations

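Beyond the named members, several genes held decay transcripts that were called both in level (edgeR) and in ratio (limma) once FLAG immunoprecipitate 2 was left out; these examples were chosen after their values were seen. EXOSC9, a subunit of the exosome, had ENST00000513654 at 17.0, 11.5 and 8.17 CPM in lysates and 81.0, 12.2 and 94.5 CPM in immunoprecipitates 1 to 3, with the coding sum at 12.8, 14.1 and 18.6 against 13.1, 19.7 and 12.8 CPM (limma adjusted p = 0.0387). KAT2A, a histone acetyltransferase, had ENST00000465682 at 15.1, 14.9 and 8.24 against 71.6, 9.86 and 67.3 CPM. In both genes immunoprecipitate 2 lay with the lysates. MTOR, the growth-control kinase, had ENST00000703141 at 0.450, 0.195 and 0.559 against 13.3, 0.423 and 50.1 CPM, while its coding sum was 137, 132 and 135 against 30.9, 141 and 8.03 CPM. That MTOR transcript reached 1 CPM through the immunoprecipitates alone.

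Lower members of this kind included FUBP1, a single-stranded DNA binding protein, with ENST00000294623 at 16.6, 14.8 and 17.9 CPM in lysates and 3.22, 9.75 and 2.70 CPM in immunoprecipitates, where every immunoprecipitate was below every lysate (limma adjusted p = 0.0218). PKM, pyruvate kinase, had ENST00000569857 at 84.5, 42.1 and 46.6 against 1.77, 48.5 and 2.06 CPM beside a coding sum of 2552, 2512 and 2607 against 835, 2826 and 920 CPM, so immunoprecipitate 2 again lay with the lysates. A second RACK1 member, ENST00000508682, was not named by the rule and had 170, 260 and 185 CPM in lysates and 68.2, 0.184 and 25.2 CPM in immunoprecipitates, the lowest value in immunoprecipitate 2. FTH1, the ferritin heavy chain, had ENST00000532829 at ratios of 0.114, 0.120 and 0.173 in lysates and 0.0955, 0.0928 and 2.24 in immunoprecipitates, where immunoprecipitate 3 alone was high.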
